A study of Mus musculus with 12 samples.

Results

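Fatty acid synthesis needs cytosolic acetyl-CoA as its carbon source and NADPH as its reductant, and 10 genes that supply them were followed in mouse liver. The genes were chosen by name: Me1, Idh1, G6pdx, Pgd, Tkt, Taldo1, Slc25a1, Acss2, Mpc1 and Mpc2. All 10 were found among the 46078 Ensembl genes of the count table, and all 10 were among the 13054 genes that passed the filter on low counts.

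Liver poly(A) RNA from 12 C57BL/6 mice (C57BL/6J in the paper's methods) aged 21 weeks was sequenced, with 4 libraries in each of 3 groups. All 3 groups had diet-induced obesity, and per the paper's methods all were male and were fed a high fat diet before and after surgery. The VSG group had a vertical sleeve gastrectomy, in which most of the stomach is removed. The Sham-WM group had sham surgery and was then given restricted food so that its weight matched that of the VSG group. The Sham-Ad lib group had sham surgery and then ate without restriction. Livers were taken after a short period without food, so the model gives 1 time point after surgery. Libraries are named here by animal number: 3F, 4F, 6F and 10F for Sham-Ad lib, 2F, 9F, 15F and 16F for Sham-WM, and 1F, 8F, 11F and 18F for VSG.

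As background, malic enzyme 1 (Me1) and cytosolic isocitrate dehydrogenase (Idh1) each reduce NADP+ to NADPH while oxidising malate or isocitrate. The oxidative branch of the pentose phosphate pathway makes NADPH through glucose-6-phosphate dehydrogenase (G6pdx) and 6-phosphogluconate dehydrogenase (Pgd), and transketolase (Tkt) and transaldolase (Taldo1) recycle the sugars it leaves. For carbon, the mitochondrial pyruvate carrier (the subunits Mpc1 and Mpc2) admits pyruvate, the citrate carrier Slc25a1 exports citrate, ATP citrate lyase (Acly) splits it to acetyl-CoA, and Acss2 makes acetyl-CoA from acetate. Many of these genes are known targets of the lipogenic factor SREBP-1c or of the antioxidant factor NRF2.

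The labelled tissue was checked against 6 hepatocyte markers, none of which was at 0 in any group. Their summed level was 101905 to 124394 CPM (read counts relative to library size, scaled by the trimmed mean of M values, TMM) in Sham-Ad lib, 121140 to 149570 among the Sham-WM livers and 78866 to 123251 in VSG. Of these 6 markers, 2 were lower and 0 higher in VSG than in Sham-WM at an adjusted p under 0.05, beside 11.9% of all genes lower. The 2 were Alb (log2 fold change -0.73) and Cps1 (-0.83), without overlap of the 2 groups, a size like that of Tkt and Pgd below. Of the 6, 4 had negative and 2 positive values, with a median of -0.15. Alb and Cps1 were picked for naming after their values were seen. Library totals ran from 15122520 to 19384076 counts. Libraries 4F and 18F stood apart in their markers: 4F had the highest sums of Kupffer cell and neutrophil markers among Sham-Ad lib libraries, and 18F had the highest hepatocyte sum and the lowest sums of both immune lists among VSG libraries. The calls below are therefore also counted without both. By these sums 4F was the Sham-Ad lib library nearest VSG, and 18F the VSG library nearest Sham-Ad lib. Leaving out both thus widens the difference between these groups in the markers by selection. The library names also carry numbers that run in 1 block per group, so anything that followed those numbers cannot be told apart from treatment. Groups follow the animal number shared by title and library name. A second label field pairs them otherwise. Grouping by it left 0 of the 13054 genes tested called in any comparison, these 10 included. In bulk liver, fewer cells of a type and less RNA per cell cannot be told apart.

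The promoters of 4 members are shown because they cover the range of responses below: Me1 and Acss2 had the largest differences between VSG and Sham-WM, the highest G6pdx values lay in 2 VSG livers, and Taldo1 had group means within a few hundredths of each other on the log2 scale. The sequences are the 250 bases before the RefSeq start (GRCm38.p6), 5′ to 3′ on the gene's strand. They lie at chr9:86695915-86696164 (minus strand), chr2:155517793-155518042 (plus strand), chrX:74428881-74429130 (minus strand) and chr7:141391910-141392159 (plus strand). Capitals mark matches, on either strand, to 3 of the 5 letter patterns searched, the GC box (GGGCGG), the CCAAT box (CCAAT) and an antioxidant response element core (TGACNNNGC). The other 2 patterns, a sterol response element (TCACNCCAC) and the E-box (CACGTG), had no match in these 4.
Me1: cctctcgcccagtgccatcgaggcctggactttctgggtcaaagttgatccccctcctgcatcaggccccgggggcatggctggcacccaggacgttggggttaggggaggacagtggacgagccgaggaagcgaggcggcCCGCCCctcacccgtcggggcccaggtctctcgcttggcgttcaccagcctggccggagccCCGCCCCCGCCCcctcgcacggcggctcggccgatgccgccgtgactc
Acss2: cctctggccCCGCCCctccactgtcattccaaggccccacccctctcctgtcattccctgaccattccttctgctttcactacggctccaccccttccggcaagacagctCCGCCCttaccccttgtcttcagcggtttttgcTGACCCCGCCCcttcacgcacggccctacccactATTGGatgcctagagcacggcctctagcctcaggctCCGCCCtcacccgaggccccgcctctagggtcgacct
G6pdx: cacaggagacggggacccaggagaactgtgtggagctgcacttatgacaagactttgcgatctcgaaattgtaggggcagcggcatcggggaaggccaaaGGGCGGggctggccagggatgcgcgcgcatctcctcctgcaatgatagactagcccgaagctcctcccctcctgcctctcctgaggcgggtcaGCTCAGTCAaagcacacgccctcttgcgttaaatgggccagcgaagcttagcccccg
Taldo1: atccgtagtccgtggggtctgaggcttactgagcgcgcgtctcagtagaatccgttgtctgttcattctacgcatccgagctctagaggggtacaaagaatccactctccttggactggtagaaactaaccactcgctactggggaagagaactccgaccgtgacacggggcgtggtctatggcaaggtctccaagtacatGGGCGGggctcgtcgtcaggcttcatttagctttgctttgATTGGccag

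The search covered 250 bases before to 50 after the start in all 10 members and in 32851 promoter windows of mouse genes. The latter were matched neither for GC content, which was 56.7% to 74.7% in the members, nor for expression in liver. The shares below are therefore a description, and no test was run. The GC box was found in all 10 members, against 35.7% of all windows, and the CCAAT box in 7, against 37.4%; the members without it were Me1, G6pdx and Tkt. The antioxidant element core was found in 3 members (Me1, G6pdx and Acss2), against 12.4% of windows. In Me1 that match, tgactcagc, begins 6 bases before the start and so runs past the end of the printed sequence. In Acss2 the match overlaps a GC box, and in G6pdx it lies on the opposite strand, 57 bases before the start. The E-box was found only in Slc25a1, against 7.15% of windows, and the sterol element in none, against 1.24%. RefSeq starts for G6pdx, Tkt, Mpc1 and Mpc2 lie 314 or more bases from the gene start in GENCODE M21, so for these the windows show 1 of several possible starts.

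The comparison of VSG with Sham-WM asks how the liver differs between surgery and food restriction at matched weight. In this comparison 5 of the 10 genes were lower in VSG and none was higher: Me1, Acss2, Pgd, Tkt and Idh1. Of all genes tested, 26.9% were called in this comparison, and 11.9% were called lower. Me1 and Acss2 differed about as much as genes of fatty acid synthesis, while the differences of Pgd, Tkt and Idh1 were below 1 on the log2 scale. In the comparison of VSG with Sham-Ad lib, 0 of 10 were called by edgeR, 5 had an unadjusted p under 0.05 and DESeq2 called 5. Over all genes the shares there were 0.751% called by edgeR, 24.1% at an unadjusted p under 0.05 and 9.01% called by DESeq2. The edgeR calls of this comparison were unstable over the whole table: 98 genes were called in all, against 1089 without 18F, 903 without 4F, 1 to 3 without 3F, 10F, 15F or 16F, and 0 without 6F, 1F, 2F or 9F. Every call of this comparison is lost in those last 4 fits, with library totals alone, with at least 10 counts in every library and with only the 2 groups compared. In the comparison of Sham-WM with Sham-Ad lib, Pgd and Tkt were higher and none was lower, with 6.99% of all genes called and 3.53% called higher. These last 2 comparisons share the Sham-Ad lib libraries. Without 4F and 18F, the same 5 genes were called lower in VSG than in Sham-WM, with 28.8% of all genes called, and Pgd and Tkt were called higher in Sham-WM than in Sham-Ad lib, with 4.94% called. In VSG against Sham-Ad lib, Me1, Acss2 and G6pdx were then called, with 11% of all genes called. Because 4F and 18F lay towards the other group in the markers they were chosen by, these added calls are no independent support.

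**Figure D1:**
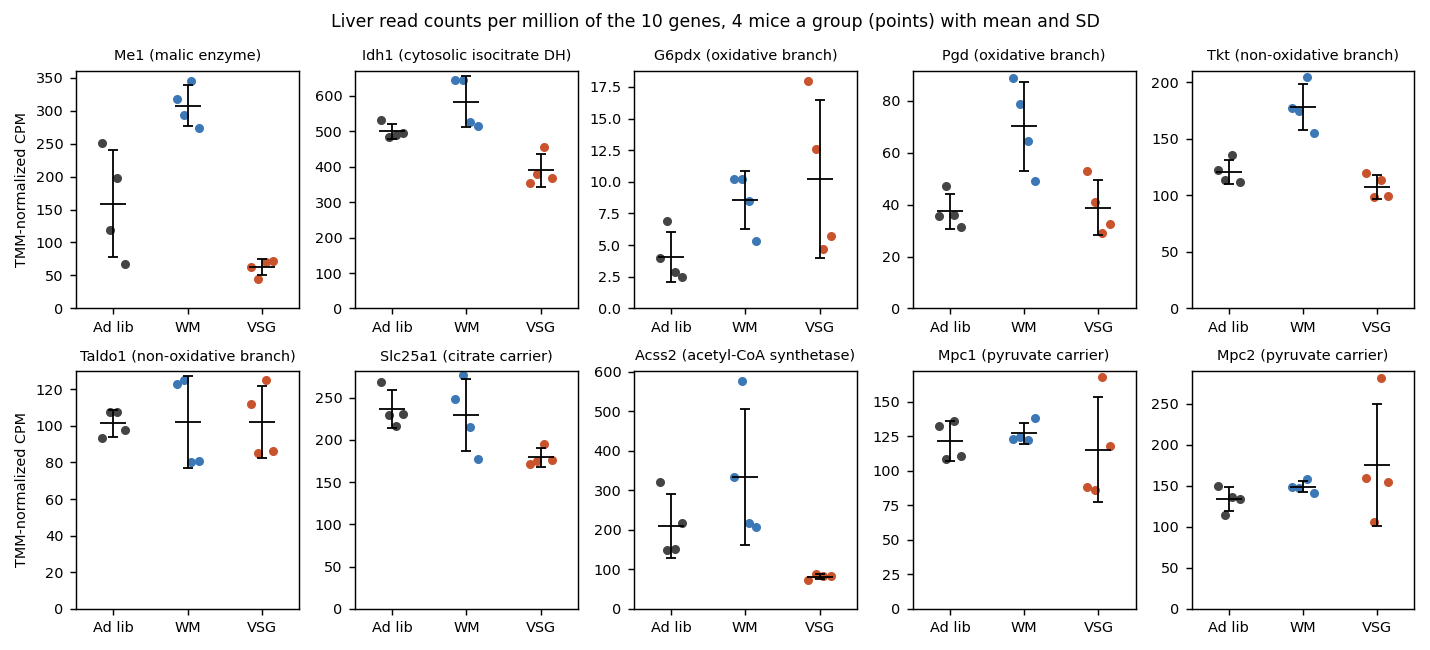
TMM-normalized CPM (vertical axes, from 0) of the 10 genes in the Sham-Ad lib (Ad lib), Sham-WM (WM) and VSG groups. Points are libraries, 4 a group, and bars are the mean and SD. Me1 lay between 273 and 346 in Sham-WM and between 45.2 and 71.3 in VSG, and Acss2 was between 72.7 and 87.7 in VSG, below all other libraries.

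**Figure D2:**
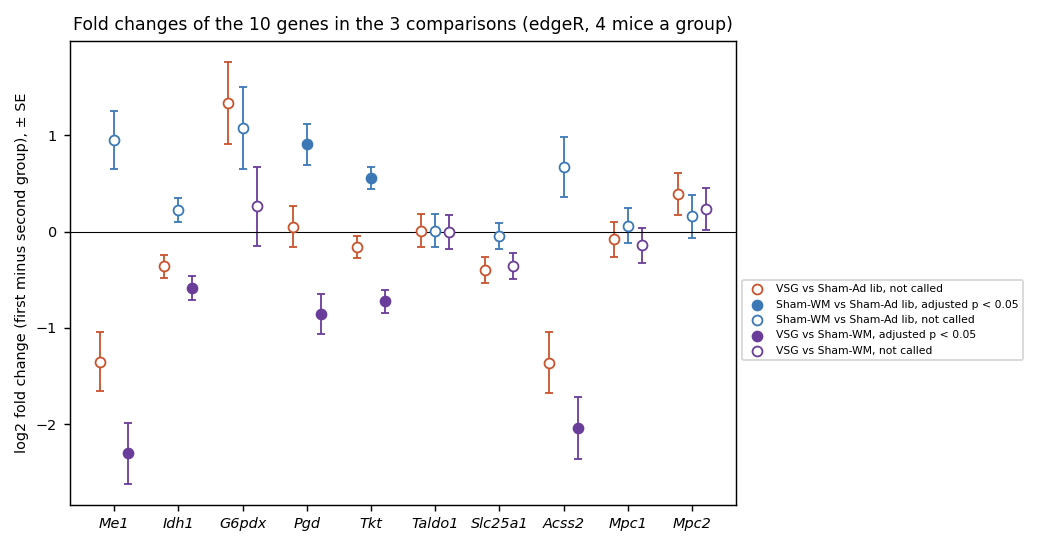
Log2 fold change (vertical axis, first group minus second) with its SE for the 10 genes in the 3 comparisons, from edgeR with 4 mice a group. Filled points had an adjusted p under 0.05: 5 genes in VSG against Sham-WM, 2 in Sham-WM against Sham-Ad lib and none in VSG against Sham-Ad lib.

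Me1 (ENSMUSG00000032418, chromosome 9, 86581371 to 86695953, mm10) makes NADPH outside the pentose phosphate pathway, as Idh1 does. Its CPM was 250.1, 119, 198 and 68.1 in the Sham-Ad lib livers 3F, 4F, 6F and 10F. It was 318, 293, 346 and 273 in Sham-WM livers 2F, 9F, 15F and 16F, and 62.6, 45.2, 70.3 and 71.3 in VSG livers 1F, 8F, 11F and 18F. The Sham-WM values lay above every other library, the VSG values were close together, and the Sham-Ad lib values were spread between them, with 10F inside the VSG range. The log2 fold change of VSG over Sham-WM was -2.30 ± 0.31 (SE, n = 4 per group, adjusted p = 0.000678). With 2 RUVs factors of unwanted variation this value was -1.64 and the call was lost (adjusted p = 0.0659). Against Sham-Ad lib it was -1.35 ± 0.31 in VSG (adjusted p = 0.0524) and 0.95 ± 0.30 in Sham-WM (adjusted p = 0.0766), and neither passed the threshold. DESeq2 called both (adjusted p = 0.000748 and 0.0213), as did RUVr factors (0.00975 and 0.0353) and edgeR with no filter on low counts (0.00853 and 0.0484). Without libraries 4F and 18F the VSG value was -1.54 with an adjusted p of 0.0200.

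Idh1 (ENSMUSG00000025950, chromosome 1, 65158616 to 65186500) was abundant in all livers. Its CPM was 532, 483, 491 and 495 in Sham-Ad lib, 646, 646, 526 and 516 among the Sham-WM livers, and 355, 379, 457 and 368 in VSG, in the animal order given above. The 4 VSG livers were below all 8 sham livers, which overlapped each other. VSG was lower than Sham-WM by a log2 fold change of -0.58 ± 0.12 (adjusted p = 0.00541). The value against Sham-Ad lib was -0.36 ± 0.12, with an adjusted p of 0.109 from edgeR, 0.0127 from DESeq2, 0.0151 with RUVr factors and 0.151 without 4F and 18F.

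In the oxidative pentose phosphate branch the first enzyme and the second did not have the same pattern. Pgd (ENSMUSG00000028961, chromosome 4, 149149991 to 149166771) had CPM of 35.5, 47.0, 36.1 and 31.2 in Sham-Ad lib, 88.6, 78.6, 64.7 and 49.1 among the Sham-WM livers, and 52.8, 41.0, 28.9 and 32.5 in VSG. All Sham-WM values were above all Sham-Ad lib values, and 1 VSG liver (1F) reached into the Sham-WM range. Pgd was higher in Sham-WM than in Sham-Ad lib (log2 fold change 0.91 ± 0.21, adjusted p = 0.0212) and lower in VSG than in Sham-WM (-0.86 ± 0.21, adjusted p = 0.0112). The first of these calls was lost when any 1 of 3F, 6F, 10F or 2F was left out, with adjusted p up to 0.0799 without 10F.

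G6pdx (ENSMUSG00000031400, chromosome X, 74409483 to 74429194), the entry enzyme of the branch, was the lowest of the 10 genes, with 39 to 301 counts per library. Its CPM was 4.02, 6.87, 2.87 and 2.45 in Sham-Ad lib, 10.2, 10.2, 8.52 and 5.29 among the Sham-WM livers, and 18.0, 12.6, 4.67 and 5.69 in VSG. VSG livers 1F and 8F were the highest of all 12, while 11F and 18F overlapped Sham-Ad lib. The log2 fold change over Sham-Ad lib was 1.34 ± 0.43 in VSG (adjusted p = 0.0942) and 1.07 ± 0.42 in Sham-WM (adjusted p = 0.155). DESeq2 gave the VSG value an adjusted p of 0.0266 and RUVr factors 0.00241. RUVr and RUVs factors also gave the Sham-WM value a call (0.00497 and 0.00416). For VSG, edgeR without 4F and 18F gave 1.92 with an adjusted p of 0.0148. That fit leaves out the highest Sham-Ad lib value (4F) and a low VSG value (18F). G6pdx overlaps Ikbkg, a gene on the opposite strand with a mean of 890 counts per library, and the strand setting of the counting is not given in the sources used here.

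Immune cell markers moved with the VSG group, and within it G6pdx was highest where they were highest. The summed level of 6 neutrophil markers was 0.379 to 14.3 CPM in Sham-Ad lib, 1.13 to 2.14 among the Sham-WM livers (with Camp at 0 in all 4 libraries) and 29.8 to 959 in VSG, and all 6 were called higher in VSG in both comparisons. Against Sham-Ad lib these calls had adjusted p of 0.0410 to 0.0459 and share the instability of that comparison given above. Of the 13054 genes tested, 1962 were called higher in VSG than in Sham-WM, and 61 higher than in Sham-Ad lib. The sum of 6 Kupffer cell markers, with none at 0, was 135 to 393 in Sham-Ad lib, 119 to 206 among the Sham-WM livers and 427 to 1038 in VSG; all 6 were higher in VSG than in Sham-WM, and 2 than in Sham-Ad lib. Both sums were highest in 1F and next highest in 8F. In the Sham-Ad lib group both sums and G6pdx were highest in 4F. The part of these cells in the G6pdx values was not tested. Sham-WM livers had G6pdx between 5.29 and 10.2 CPM with both sums low.

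**Figure D3:**
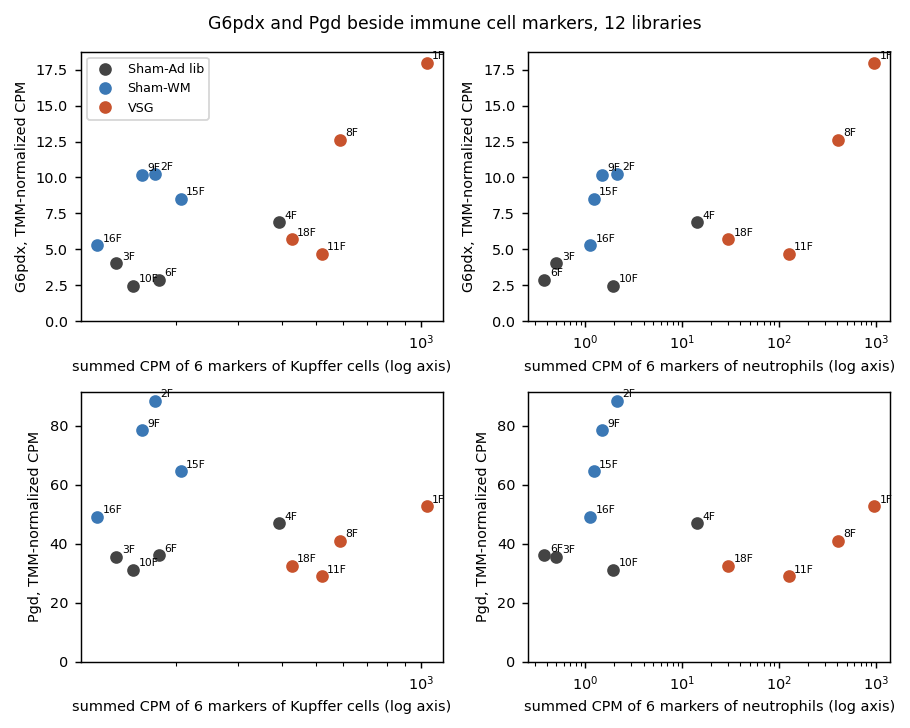
CPM of G6pdx (top) and Pgd (bottom) in each of 12 libraries against the summed CPM of 6 Kupffer cell markers (left) or 6 neutrophil markers (right), on log horizontal axes. VSG livers 1F and 8F are at the upper right for G6pdx, at 18.0 and 12.6, while the highest Pgd values are in Sham-WM livers at low marker sums.

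In the non-oxidative branch, Tkt (ENSMUSG00000021957, chromosome 14, 30548359 to 30574720) and Taldo1 differed in response. Tkt had CPM of 123, 113.1, 135 and 111.4 in Sham-Ad lib, 177, 174, 205 and 155 among the Sham-WM livers, and 119, 98.3, 113.6 and 99.3 in VSG. Sham-WM was above both other groups in every library, and the other two overlapped. The log2 fold change was 0.56 ± 0.11 for Sham-WM over Sham-Ad lib (adjusted p = 0.0116) and -0.72 ± 0.11 for VSG over Sham-WM (adjusted p = 0.00139). Both calls held in all 12 fits that left out 1 library.

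Taldo1 (ENSMUSG00000025503, chromosome 7, 141392199 to 141402968) lay between 93.2 and 107.6 CPM in Sham-Ad lib, 80.0 and 125 among the Sham-WM livers, and 85.3 and 125 in VSG. The 3 groups overlapped throughout. The log2 difference between VSG and Sham-WM was -0.0024, with a 95% interval of -0.34 to 0.34, so changes inside that interval were not detectable with these replicates.

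On the acetyl-CoA side, Acss2 (ENSMUSG00000027605, chromosome 2, 155517948 to 155585724) was lowest in VSG. Its CPM was 320.1, 148, 151 and 217 in Sham-Ad lib, 333, 577, 217 and 207 among the Sham-WM livers, and 72.7, 87.7, 82.0 and 82.6 in VSG. The 4 VSG livers were close to each other and below all 8 sham livers, while the sham groups overlapped and each had a wide spread. VSG was lower than Sham-WM by a log2 fold change of -2.04 ± 0.32 (adjusted p = 0.00139). With 2 RUVs factors of unwanted variation this value was -1.88 and the call was lost (adjusted p = 0.0589). The value against Sham-Ad lib was -1.36 ± 0.32, with an adjusted p of 0.0530 from edgeR, 0.00104 from DESeq2, 0.0106 with no filter, 0.0137 with RUVr factors and 0.0250 without 4F and 18F. The Sham-WM value over Sham-Ad lib was 0.67 ± 0.31 (adjusted p = 0.229). Acss2 overlaps Gss on the opposite strand, which had a mean of 1146 counts per library.

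The citrate carrier Slc25a1 (ENSMUSG00000003528, chromosome 16, 17925223 to 17928219) had CPM of 268, 229, 216 and 231 in Sham-Ad lib, 248, 276, 215 and 178 among the Sham-WM livers, and 171, 175, 196 and 176 in VSG. VSG was below Sham-Ad lib in every library and overlapped Sham-WM through 16F. The log2 fold change was -0.40 ± 0.13 against Sham-Ad lib (adjusted p = 0.106) and -0.35 ± 0.13 against Sham-WM (adjusted p = 0.0639). DESeq2 called both (adjusted p = 0.0301 and 0.0270), as did RUVr factors (0.0358 and 0.0371). Library totals alone (0.0363) and leaving out 16F also gave a call in the second comparison.

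The pyruvate carrier subunits were not called in any comparison. Mpc1 (ENSMUSG00000023861, chromosome 17, 8282904 to 8297661) lay between 108.2 and 136 CPM in Sham-Ad lib, 122 and 139 among the Sham-WM livers, and 86.1 and 168 in VSG. Mpc2 (ENSMUSG00000026568, chromosome 1, 165460637 to 165481214) lay between 114.4 and 149.5 in Sham-Ad lib, 141 and 158 among the Sham-WM livers, and 105.5 and 281 in VSG. Both were highest in VSG liver 11F, the library with the lowest total (15122520 counts) and the lowest TMM factor (0.879), and the role of depth was not tested. Mpc1-ps, a pseudogene copy on chromosome 12, had a mean of 116 counts per library, so reads of the pair may have been split between them.

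Genes whose 4 values did not overlap between groups were also counted. Between VSG and Sham-WM these were Me1, Tkt, Idh1 and Acss2, all lower in VSG, or 4 of 10 beside 26.2% of all genes. Between Sham-WM and Sham-Ad lib they were Me1, Pgd and Tkt, all higher in Sham-WM, or 3 of 10 beside 17.6%. Between VSG and Sham-Ad lib they were Idh1, Slc25a1 and Acss2, all lower in VSG, or 3 of 10 beside 9.21%. DESeq2 called 6 members in VSG against Sham-WM, where it called 25.2% of all genes, and 3 in Sham-WM against Sham-Ad lib, where it called 10.8%.

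Levels were compared between genes only as CPM per kilobase of the principal transcript. Idh1 was the highest of the 10 in Sham-Ad lib (217 ± 9.38, SD, n = 4) and in Sham-WM (253 ± 31.4), apart from the next gene in both. In VSG, Mpc2 (171 ± 72.8) and Idh1 (169 ± 19.8) came first and their values overlapped. G6pdx was last in every group, at 1.53 ± 0.751 in Sham-Ad lib, 3.23 ± 0.876 among the Sham-WM livers and 3.86 ± 2.36 in VSG, and the values of Pgd did not overlap it in any group. Me1 ranked 7 of 10 in Sham-Ad lib, 6 among the Sham-WM livers and 8 in VSG, and Acss2 ranked 6, 5 and 7 in the same order of groups. Most of these ranks are not resolved. In Sham-Ad lib, Taldo1, Acss2 and Me1 each overlapped the next gene in order. In VSG, Me1 overlapped Pgd, while Acss2 overlapped neither of its neighbours. In Sham-WM, Mpc2, Slc25a1, Mpc1, Acss2 and Me1 each overlapped the next, and Taldo1 did not overlap Tkt.

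Ratios of 2 genes within a library need no scaling between libraries. Of 21 tests (7 ratios in 3 comparisons), 9 reached an exact permutation p of 0.0286, the smallest that 4 against 4 libraries can give, and none passed adjustment, where the lowest value was 0.0667. The largest difference was in Slc25a1 relative to Acly, the next enzyme in the route: the log2 ratio was between -0.56 and -0.14 in Sham-Ad lib, -2.70 and -1.60 among the Sham-WM livers, and 0.19 and 0.95 in VSG, with no overlap. Its means differed by -1.89 between Sham-WM and Sham-Ad lib and by 2.68 between VSG and Sham-WM. Acly itself had mean CPM of 297 ± 35.8, 1071 ± 244 and 131 ± 25.3 (SD, n = 4) in the order Ad lib, WM and VSG. The ratio of G6pdx to Pgd was higher in VSG than in both sham groups in every library, by means of 1.20 and 0.95. Tkt relative to Taldo1 was higher in Sham-WM than in both other groups (0.58 and, for VSG minus Sham-WM, -0.73), and Mpc1 relative to Mpc2 was lower in VSG than in Sham-Ad lib by a mean difference of -0.44.

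**Figure D4:**
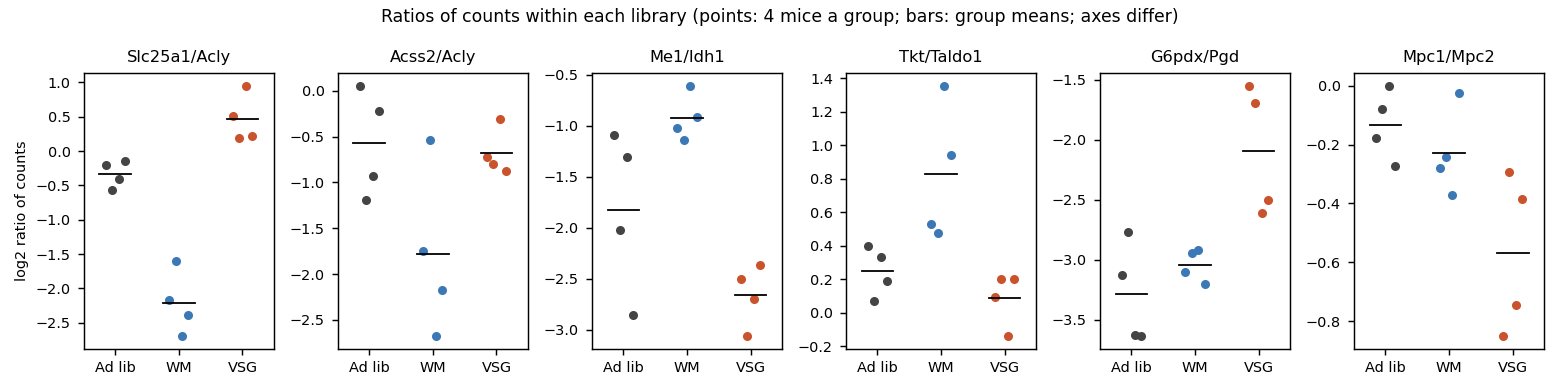
Log2 ratios of counts (vertical axes, which differ) of 6 gene pairs within each library, for Sham-Ad lib (Ad lib), Sham-WM (WM) and VSG. Points are libraries, 4 a group, and lines are group means. Slc25a1/Acly separates all 3 groups, from -2.70 to 0.95.

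A list of 50 other genes of NADPH and acetyl-CoA supply was read from the same fit, of which 45 were tested. In VSG against Sham-WM, 17 were lower and 3 higher, with a median log2 fold change of -0.36 beside 0.028 over all genes tested. In Sham-WM against Sham-Ad lib, 4 were higher and 2 lower (median 0.12, all genes 0.00079). In VSG against Sham-Ad lib 0 were higher and 2 lower (median -0.22, all genes 0.028). Of all genes tested, 26.9% were called in the first comparison (11.9% lower), 6.99% in the second and 0.751% in the third. Most calls of the list were in the citrate and acetyl-CoA part, where 14 of 27 tested genes were lower and 1 higher in VSG than in Sham-WM. Its largest differences were those of Acly, Pdk4 (a kinase that switches off pyruvate dehydrogenase), Acss3 (an acyl-CoA synthetase of mitochondria) and Crat (carnitine acetyltransferase). Their log2 fold changes in VSG over Sham-WM were -3.03, -2.30, -1.72 and -1.25.

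Against Sham-Ad lib, Acly (-1.18, adjusted p = 0.0410) and Crat (-0.96, adjusted p = 0.0469) were the 2 list genes lower in VSG. In that comparison 0 list genes were called without 3F, 6F, 10F, 2F, 9F, 16F or 1F, and 1 without 15F or 11F. The 4 that were higher in Sham-WM were Acly (1.85), Pdk4 (1.65), Slc16a1 (1.02), a carrier of lactate and pyruvate, and Pdhb (0.51), a subunit of pyruvate dehydrogenase. Pdk2 (-0.82) and H6pd (-0.67) were lower there. Slc16a1, Pdhb and Pdk2 were picked for naming after their values were seen.

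Of 9 other pentose phosphate genes tested, 2 were higher and 1 lower in VSG than in Sham-WM, where 26.9% of all genes were called. H6pd, the enzyme that runs the same first steps inside the endoplasmic reticulum, had mean CPM of 566 ± 41.5, 356 ± 56.3 and 518 ± 108.7 (SD, n = 4) in the Sham-Ad lib group, Sham-WM and VSG. Its 4 Sham-WM values, up to 438, overlapped VSG values, which began at 422, and lay below all Sham-Ad lib values. It was lower in Sham-WM than in Sham-Ad lib (adjusted p = 0.0218) and higher in VSG than in Sham-WM (0.54, adjusted p = 0.0235), the reverse of Pgd and Tkt in both comparisons. Ribokinase (Rbks) was higher in VSG than in Sham-WM (0.44) and Prps1l3 lower (-0.45).

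Of 9 other NADPH genes tested, 2 were lower in VSG than in Sham-WM, beside 11.9% of all genes. These were Nadk (-0.49), the kinase that makes NADP+, and Nnt (-0.41), the mitochondrial transhydrogenase. Among paralogs of the members, the mitochondrial Idh2 had log2 fold changes of 0.05 in VSG and 0.30 in Sham-WM over Sham-Ad lib, and -0.24 in VSG over Sham-WM, none called. Mitochondrial Me2 had a mean of 2.00 CPM in Sham-Ad lib, 2.53 among the Sham-WM livers and 4.44 in VSG, with 6.81 in 1F and 5.77 in 8F, the same libraries where G6pdx was high. Its adjusted p in VSG was 0.0826 against Sham-Ad lib and 0.0862 against Sham-WM. Acss1 had at most 1.49 CPM and Me3 at most 0.225, and neither passed the filter.

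Genes of a fatty acid synthesis list differed more than most members. All 6 of Acaca, Acacb, Fasn, Elovl6, Scd1 and Thrsp were lower in VSG than in Sham-WM, with a median of -2.41, beside 11.9% of all genes lower. Elovl6 (-3.13), Acacb (-2.90), Fasn (-2.81) and Scd1 (-2.02) differed most. In Sham-WM 4 of 6 were higher than in Sham-Ad lib (median 1.16), beside 3.53% of all genes. In VSG 1 of 6 was lower than in Sham-Ad lib (median -1.13), where 0.751% of all genes were called. This was Acacb (-1.80), a call lost in the fits named above. Me1 and Acss2, at -2.30 and -2.04 in VSG over Sham-WM, were in the range of this list, and the other 8 members were not.

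In the cholesterol synthesis list, 5 of 10 genes were lower in VSG than in Sham-WM (median -1.15), beside 11.9% of all genes. They included Lss (-1.71), Fdps (-1.46) and Hmgcs1 (-1.14). No gene of the list was called between the sham groups (median -0.20), where 0 had an unadjusted p under 0.05. Against Sham-Ad lib, all 10 had negative values in VSG (median -1.27), and Lss was called, a call lost in the same fits. Of 8 antioxidant genes of the NRF2 type tested, Hmox1 was higher in VSG than in Sham-WM (1.78) and Gclc (-0.59) and Txnrd1 (-0.37) were lower. Txnrd1 was higher in Sham-WM than in Sham-Ad lib (0.32). Of all genes tested, 26.9% were called in the first of these comparisons and 6.99% in the second.

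**Figure D5:**
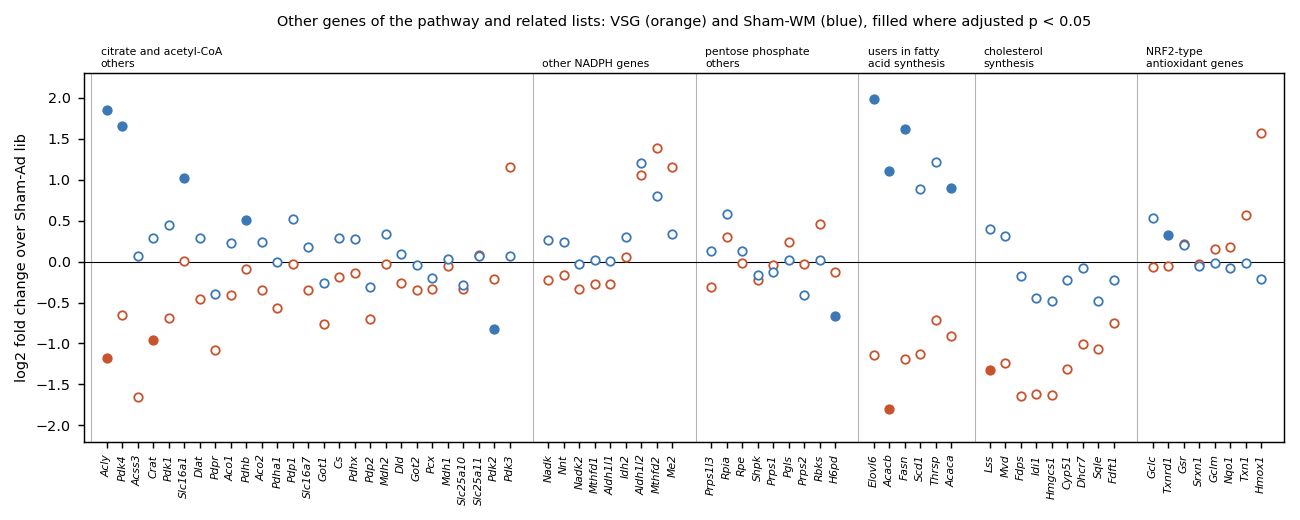
Log2 fold change over Sham-Ad lib (vertical axis) in VSG (orange) and Sham-WM (blue) for genes of 6 lists, ordered within a list by VSG minus Sham-WM. Filled points had an adjusted p under 0.05. All 6 genes of the fatty acid synthesis list (headed users in fatty acid synthesis) are above 0 in Sham-WM and below 0 in VSG. The cholesterol genes plotted are all below 0 in VSG.

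The genes whose log2 CPM followed each member most closely over the 12 libraries were listed as a description, since all share the group differences and the same libraries. Me1 was most like Klhl8 (Pearson r = 0.960), Adipor2 (0.943) and Cs (0.941), and Idh1 was most like Sucnr1 (0.966), Acsl5 (0.944) and Gtf2h2 (0.931). Acss2 was most like 3 genes of sterol metabolism, Lss (0.966), Acat2 (0.961) and Sc5d (0.959), and Acat2 (0.903) was also second for Slc25a1, between Iqcb1 (0.918) and Rnf103 (0.897). Pgd was most like Tpm4 (0.959), Spryd3 (0.947) and Serpinh1 (0.935), Tkt was most like Trabd (0.954), Ufl1 (0.942) and Eno1 (0.941), and G6pdx was most like Parvb (0.904), Gatm (0.900) and Mark2 (0.895). Taldo1 had its highest value with Cetn3 (0.899), then Nmi (0.897) and Coq7 (0.891). Mpc1 was most like Acadl (0.939), Nmnat1 (0.932) and Hibadh (0.931), and Mpc2 was most like Ndufa6 (0.951), Apoc3 (0.941) and Acot13 (0.941). No member was among the 3 most like another.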

How the data were processed

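Liver RNA of 12 mice was analysed, 4 from each surgical group. The authors made directional poly(A) libraries, aligned reads to mm10 with TopHat2 2.1.1 and counted them on genes with featureCounts, per the submitters' processing notes. The deposited values are whole-number counts, neither normalized nor corrected for batch. The annotation release and strand setting of the counting are not given in the sources used here. Symbols and positions came from GENCODE M21 (mm10), which matched 45229 of 46078 genes, and promoters from RefSeq (GRCm38.p6, 10 of 10 members matched).

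Libraries were assigned by the animal number that library names and sample titles share. The description field pairs titles with other libraries and was run as an alternative. Replicates had a Spearman rho of at least 0.963 and a chi-square per degree of freedom of at least 16.8. No 2 libraries of the same group were therefore copies, and libraries of different groups were not compared in this way. Totals of 15122520 to 19384076 counts set the counting error, which covers counting only, as reads had no molecular identifiers.

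In R 4.3.3, edgeR 4.0.16 (filterByExpr, minimum count 10, minimum total 15; TMM; quasi-likelihood test on all 12 libraries) was used, with Benjamini-Hochberg adjustment over 13054 genes and calls at 0.05. CPM are TMM-normalized. Intervals are 1.96 SE. Exact two-sided permutation tests compared 4 with 4 libraries. Ratios used counts + 1, and CPM per kilobase the principal transcript's length. The method was tested on simulated data. DESeq2 1.42.0, RLE, upper quartile and no composition factors, other filters, fits of 2 groups, 2 RUVs or RUVr factors written out from their definitions (the study used 2 factors) and leave-one-out fits were alternatives.

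The members and gene lists were chosen with earlier results of these data known. Named genes were every member, the paralogs Me2, Me3, Idh2, Acss1, Acss3 and H6pd, the 4 genes per list with the largest difference among those called in VSG against Sham-WM, and the 3 genes most like each member. A gene of the cholesterol list that this rule would name is not reported here.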

Additional observations from a re-analysis of the deposited data

Results flagged for a closer look

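For 4 members the effects of VSG and of Sham-WM, each against Sham-Ad lib, had opposite signs and differed by the test of VSG against Sham-WM, which in a fit with a shared control is the test of the difference between these effects. The log2 fold change of VSG over Sham-WM was -2.30 for Me1, -2.04 for Acss2, -0.72 for Tkt and -0.58 for Idh1. For Me1 the effects were -1.35 in VSG and 0.95 in Sham-WM, for Acss2 -1.36 and 0.67, for Tkt -0.16 and 0.56, and for Idh1 -0.36 and 0.22. Of these 8 effects, only that of Tkt in Sham-WM passed the threshold by itself in edgeR (adjusted p = 0.0116). No member had a library that stood apart from the other 3 of its group by Dixon's test.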

How the results depend on the processing

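The calls of Me1, Acss2, Pgd, Tkt and Idh1 in VSG against Sham-WM passed the threshold in all 12 fits that left out 1 library, and that of Tkt in Sham-WM against Sham-Ad lib did too. With RUVs factors the calls of Me1 and Acss2 were lost and those of Pgd, Tkt and Idh1 held. With libraries grouped by the description field no member and no list gene was called in any comparison (0, 0 and 0). Neither was any other of the 13054 genes tested. The number of members called in VSG against Sham-Ad lib, 0 in the main analysis, was 5 with DESeq2 (Me1, G6pdx, Idh1, Slc25a1 and Acss2), 5 with RUVr factors, 2 with no filter on low counts and 3 without 4F and 18F; leaving out 1 library gave 0 to 3, with 3 (Me1, G6pdx and Acss2) without 4F or without 18F. The share of all genes called rose in the same fits, from 0.751% to 9.01%, 23.2%, 2.72% and 11%, and to 6.82% without 4F and 8.2% without 18F. In Sham-WM against Sham-Ad lib, 2 members were called in the main analysis. The number was 3 with DESeq2, 4 with RUVr, 3 with RUVs and 3 with no filter. Of all genes these fits called 10.8%, 16.8%, 13.2% and 3.42%, against 6.99%. With 1 library left out it was 1 to 2 members, with 3.19% to 9.89% of all genes called. In VSG against Sham-WM, 5 in the main analysis, the number was 3 with RUVs, which called 4.01% of all genes against 26.9%. With 1 library left out it was 5 to 6, with 16.5% to 29.1% of all genes called.

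Of the list of 50 genes, 2 were called in VSG against Sham-Ad lib in the main analysis. That count was 15 with DESeq2, 18 with RUVr, 7 with no filter and 13 without 4F and 18F. It was 0 with RUVs, with library totals alone, with at least 10 counts in every library and with only the 2 groups compared. With 1 library left out it was 0 to 9. In the same order these 8 fits called 9.01%, 23.2%, 2.72%, 11%, 0.0613%, 0%, 0% and 0% of all genes, against 0.751%. With 1 library left out that share was 0% to 8.2%. In Sham-WM against Sham-Ad lib (6 in the main analysis) the count was 12 with RUVr, 11 with RUVs, 4 without 4F and 18F, and 4 to 6 with 1 library left out. The shares of all genes called were 16.8%, 13.2%, 4.94% and 3.19% to 9.89%, against 6.99%. In VSG against Sham-WM (20) the count was 3 with RUVs, 29 with RUVr, and 14 to 23 with 1 library left out. These fits called 4.01%, 42.2% and 16.5% to 29.1% of all genes, against 26.9%.

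Apart from grouping by the description field, signs changed only for values not called in the main analysis. Most of these were near 0, but not all reversed values were. For Taldo1 the log2 fold change was 0.0086 in VSG over Sham-Ad lib and became -0.014 with RLE factors, -0.034 with library totals, -0.022 with DESeq2, -0.035 with no filter, -0.27 with RUVs and -0.015 with RUVr (-0.11 to 0.080 with 1 library left out). In Sham-WM over Sham-Ad lib it became -0.0073 with no filter and -0.014 with RUVr (-0.100 to 0.11), and in VSG over Sham-WM 0.032 with upper quartile factors, 0.0087 with at least 10 counts and 0.069 without 4F and 18F (-0.11 to 0.11). RUVs turned Pgd to -0.35 and Mpc1 to 0.082 in VSG over Sham-Ad lib. In VSG over Sham-WM it turned G6pdx from 0.26 to -0.88 (not called) and Mpc1 to 0.039. With 1 library left out, Pgd ran from -0.13 to 0.18 and Mpc1 from -0.33 to 0.025 in VSG over Sham-Ad lib, Slc25a1 from -0.14 to 0.064 in Sham-WM over Sham-Ad lib, G6pdx from -0.15 to 0.50 and Mpc2 from -0.088 to 0.39 in VSG over Sham-WM, and the log2 ratio Acss2/Acly from -0.31 to 0.11 in VSG minus Sham-Ad lib.

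Grouping by the description field reversed more values, none of them called. In VSG over Sham-Ad lib these were Slc25a1 (0.077), Acss2 (0.16), Mpc2 (-0.22), Me1/Idh1 (0.025) and Acss2/Acly (0.52). In Sham-WM over Sham-Ad lib they were Me1 (-0.21), Tkt (-0.17), Slc25a1 (0.13), Mpc1 (-0.24), Mpc2 (-0.50), Mpc1/Mpc2 (0.20), Tkt/Taldo1 (-0.32), Me1/Idh1 (-0.11), Acss2/Acly (0.48) and Slc25a1/Acly (0.47). In VSG over Sham-WM they were Me1 (0.10), Pgd (0.047), Mpc1 (0.020), Tkt/Taldo1 (0.035), Me1/Idh1 (0.14) and (G6pdx+Pgd)/(Tkt+Taldo1) (0.040). The cause of these changes was not tested. No paired analysis was possible because the groups share no animal numbers. Depth limits G6pdx most, with 39 counts in its lowest library.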
